A study of Mus musculus with 9 samples.

Results

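The genes described here build, fill and run the cilium, a microtubule-based extension of the cell surface. They were read on microarrays of 3 cell populations sorted from the mouse mammary gland. Members were taken by name: every probe called DNAH, DNAI, IFT, BBS, TEKT (tektins) or RSPH (radial spokes) with a number. No probe bore DNAH or DNAI with a number. Probes with names starting DNAL (axonemal dynein light chains) or DYNLRB (roadblock chains) were also taken. So were the named genes Nme7, Tppp3, Foxj1, Ccdc114, Ccdc65, Spag6, Spag16, Spag17, Hydin, Rfx2 and Rfx3. This gave 71 of the 45281 probes, for 38 genes. A probe counted as detected on an array where its detection value lay above 0.99, and it was tested if detected on at least 3 of the 9 arrays. That held for 43 of the 71 member probes, for 27 of the 38 genes, and for 17712 probes in all. The choice by detection is a description and has no test.

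Glands came from virgin C57BL/6 mice 10 weeks old, all carrying Lgr5-GFP-IRES-CreERT2, an allele in which GFP reports Lgr5. Cells were sorted into Lgr5+ basal, Lgr5- basal and luminal groups, with 3 arrays each. Lgr5 is a Wnt-pathway receptor, basal cells form the outer contractile layer of the mammary ducts, and luminal cells line them. Luminal and basal groups alike carry the allele, and no group from animals without it was used here. Each sample bears the number of a pool, and each pool gave 1 array per group, and p-values reflect only how far pools differed. Pools 1 and 2 were hybridized on one BeadChip, called BeadChip 1 here, and pool 3 on another, BeadChip 2. How many mice a pool held and which surface markers were sorted on are not stated in the labels.

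Most cells of a mammal can raise a single, immotile primary cilium, which gathers receptors of signalling pathways such as Hedgehog. Trains of IFT-B and IFT-A proteins carry cargo out to the tip and back to the base, and the BBSome, a complex of BBS proteins, moves membrane proteins along with them. Cells with motile cilia add dynein arms, radial spokes and a central pair of microtubules, under transcription factors that include Foxj1 and the RFX family. RFX proteins bind the X-box, an inverted repeat found in promoters of ciliary genes. Basal cells of the mammary gland are known to bear primary cilia.

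Arrays had mean raw intensities of 428.1 to 654.4, and 15235 to 17423 probes were detected per array. Values below are the authors' normalized log2 intensities, given as mean ± SD over the 3 arrays of a group, and a difference is a difference of log2 means. Cell-type markers followed the labels, as all 10 basal markers checked were higher in both basal groups than in luminal cells, and all 12 luminal markers were lower. Luminal replicate 2 stood apart in the basal markers, with a median log2 level of 8.01 against 5.70 and 5.89 on the other luminal arrays and 12.74 to 13.18 on the basal arrays. Of 14 multiciliated-cell markers on the array, 7 were detected on no array, among them Mcidas, Gmnc and Deup1. The summed linear level of these markers was 5659 to 6800 on the Lgr5+, 4912 to 5844 on the Lgr5- and 6360 to 7083 on the luminal arrays. That sum takes in undetected probes, and the list includes the members Foxj1, Dynlrb2 and Rsph1. Of 6 tested markers, 2 were higher and 2 lower than in luminal cells in each basal group. The part of multiciliated cells in the results was not tested. Endothelial markers differed within the Lgr5+ group, with a median log2 level of 9.63 on replicate 2 against 8.03 and 7.25 on the others, and Kdr and Erg detected on no array. Against luminal cells, 7 of 10 tested fibroblast markers were higher and 1 lower in Lgr5+ cells, and 6 and 1 in Lgr5- cells. For 11 endothelial markers the counts were 5 and 0, then 5 and 1. For 6 Schwann markers they were 5 and 1, then 4 and 1. Of 6 pericyte markers 3 were higher and 1 lower in each basal group. Of 4 haematopoietic markers 1 was higher and 0 lower in each. Between the basal groups 1 of these 4 was called lower in Lgr5+ cells, and no other marker list held a call there. What part such cells have in the results was not tested. Without Lgr5+ replicate 2, 3 member probes were higher and 0 lower between the basal groups, with the call on Tppp3 lost, and 12 were higher and 8 lower in Lgr5+ against luminal cells. Without luminal replicate 2, 12 were higher and 8 lower in Lgr5+ against luminal cells, and 10 higher and 8 lower in Lgr5- against luminal cells, and the counts with all arrays are given with each comparison. In bulk samples, fewer cells of a type and less RNA per cell cannot be told apart.

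Promoter sequence is shown first, for the called genes whose window holds the X-box wholly before the start of the gene. Windows reach from 250 bases before to 50 bases after the start, as RefSeq annotates it on GRCm38.p6. The search used the letters GTNNCC and NGNAAC with 0 to 3 further bases between them, on both strands. These are spelled GTNNCCNGNAAC, GTNNCCNNGNAAC, GTNNCCNNNGNAAC and GTNNCCNNNNGNAAC, and matches of different spacing may overlap. Each line runs 5′ to 3′ along the gene's strand, from 40 bases before the match toward the start, and capitals mark the match. The windows are chr3:36613457-36613550 (minus strand) for Bbs7, chr7:45924160-45924214 (plus) for Ccdc114, chr15:98708141-98708193 (plus) for Ccdc65, chr8:116504924-116505014 (plus) for Dynlrb2 and chr17:56831070-56831164 (minus) for Rfx2.
Bbs7: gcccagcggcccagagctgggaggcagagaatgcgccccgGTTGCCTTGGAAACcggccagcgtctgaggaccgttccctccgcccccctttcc
Ccdc114: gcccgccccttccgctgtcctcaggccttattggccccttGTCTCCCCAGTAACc
Ccdc65: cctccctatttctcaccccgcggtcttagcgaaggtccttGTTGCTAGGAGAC
Dynlrb2: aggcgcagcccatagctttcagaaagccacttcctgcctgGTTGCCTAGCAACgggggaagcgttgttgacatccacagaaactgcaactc
Rfx2: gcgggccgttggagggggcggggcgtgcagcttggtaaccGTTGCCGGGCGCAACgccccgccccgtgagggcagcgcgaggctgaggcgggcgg

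The match ended 107 bases before the start in Bbs7, 101 in Rfx2, 38 in Dynlrb2 and 1 in Ccdc114, and it abutted the start in Ccdc65, where it lies on the opposite strand. In Bbs7 the same letters match on both strands. RefSeq windows were at hand for 32 of the 38 genes, all but Foxj1, Ift122, Ift80, Ift81, Rsph1 and Tppp3. A match stood in 13 of these 32 (40.6%), against 1606 of 27025 genes in all (5.94%). Among the genes tested on the arrays it stood in 9 of 21, and among those not tested in 4 of 11, namely Bbs1, Hydin, Spag16 and Spag17. The other tested genes with a match were Bbs4, Ift57, Ift74 and Nme7. A match is a description of letters and not a shown binding site, and the 5 printed promoters belong to genes that differ in direction: Dynlrb2 was lower in basal cells, the others higher in at least one comparison.

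**Figure D1:**
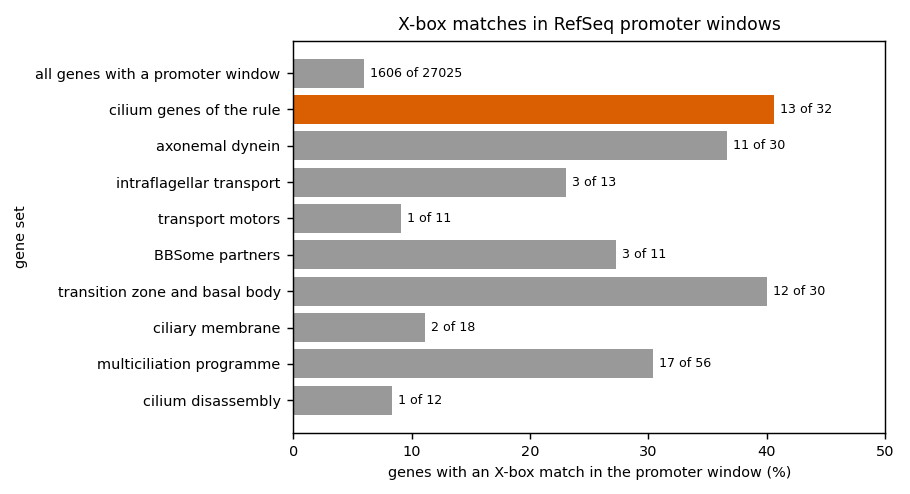
Share of genes, in percent on the horizontal axis, whose RefSeq promoter window holds an X-box match, for the cilium genes of the rule, for 8 lists of other cilium genes and for all genes. Labels give the counts: 13 of 32 cilium genes and 1606 of 27025 genes in all had a match, and bars have no error since each is a count of annotated genes.

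The cilium genes were not detected alike by role. Most genes of the transport trains and of the BBSome were detected in all 3 populations, while most genes of the motile axoneme were not. All 10 IFT genes on the list were tested, with 18 probes, as were 7 of the 8 BBS genes, with Bbs1 the exception. None of the tektins Tekt1, Tekt3 and Tekt5, which are filament proteins inside axonemal microtubules, was detected on enough arrays. The same held for Hydin, Spag6, Spag16 and Spag17, proteins of the central pair, for the dynein chains Dnali1 and Dnal4, and for Rfx3. Of the motile-type genes, Rsph1, Dnal1, Ccdc114, Ccdc65 and Foxj1 were tested. Of the 28 untested probes, 22 were detected on no array and 6 on 1 or 2 arrays, and their log2 values lay between 4.29 and 6.24.

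At the detection limit, the tested Bbs10 probe, for a chaperonin-like protein that helps to assemble the BBSome, was detected on 3 arrays and read 5.001 to 5.67. The tested Ift57 probe, for an IFT-B subunit, was also detected on 3 and read 4.56 to 6.14. Just outside, with 2 arrays, a second Dnal1 probe read 5.13 to 6.24, another Ift140 probe 4.71 to 6.12 and a second Ift74 probe 4.46 to 5.62. Of the tested probes, 33 were detected on all 9 arrays. Foxj1, Dynlrb2, 1 Ccdc65 probe and 1 Bbs9 probe were tested only through the groups in which they were high, so their differences from the other groups are in part set by the filter.

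**Figure D2:**
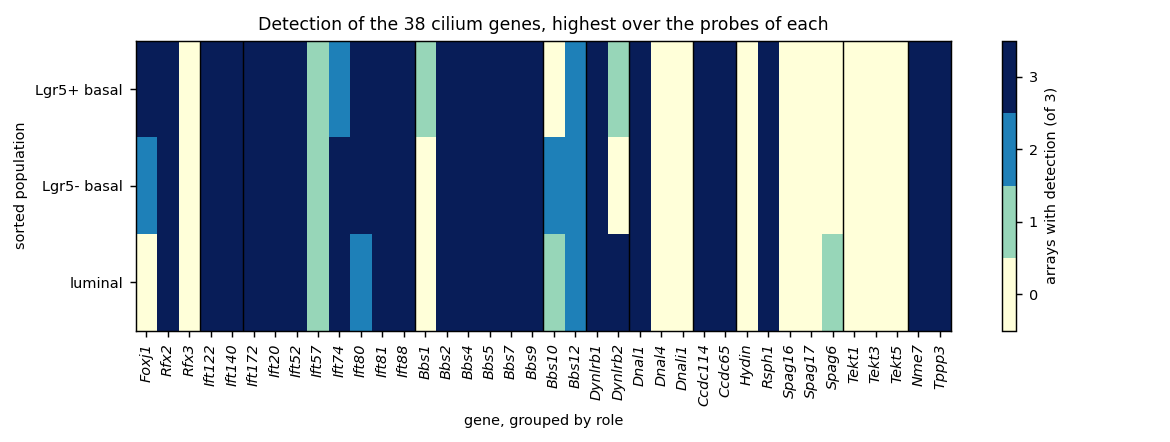
Number of arrays, of 3 per sorted population, on which the most often detected probe of each of the 38 genes was detected there, with genes on the horizontal axis grouped by role. Most IFT and BBS genes are at 3 in all rows, with Ift57 at 1 and Bbs1 at 1, 0 and 0, tektins are at 0 in all, Foxj1 is at 3, 2 and 0 from top to bottom, and Dynlrb2 is at 1, 0 and 3.

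Between Lgr5+ and Lgr5- basal cells, the question is how cells that express Lgr5 differ from their basal neighbours. In this comparison 4 of the 43 member probes were called at a Benjamini-Hochberg adjusted p below 0.05 in limma, all 4 higher in Lgr5+ cells, against 0.965% of all tested probes called and 0.474% called higher. They were 1 probe of Tppp3 and 3 of the 7 tested probes of Nme7, so 2 of 27 genes. No member was called lower, against 0.491% of all tested probes, 12 had an unadjusted p below 0.05, and the median difference was 0.24 against -0.00 over all tested probes. The groups did not overlap for 15 of the 43, against 21.6% of all tested probes. The 43 probes hold several per gene and were chosen by name with earlier results known, so the count describes them and supports nothing beyond them.

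Tppp3, a tubulin-binding protein that bundles microtubules, differed between each pair of the 3 populations. It read 10.14, 10.06 and 9.94 on the Lgr5+ arrays, 9.18, 9.07 and 9.16 on the Lgr5- arrays and 7.38, 7.27 and 7.05 on the luminal arrays. The 3 groups did not overlap in any pair, with Lgr5+ cells highest and luminal cells lowest. Means were 10.05 ± 0.10, 9.14 ± 0.06 and 7.23 ± 0.17 (SD, n = 3 arrays each). The level in Lgr5+ cells exceeded that in Lgr5- cells 1.88-fold, which is 0.91 on the log2 scale (SE 0.158, limma adjusted p = 0.0246). It exceeded luminal cells 7.03-fold (difference 2.81, limma adjusted p = 1.63e-07), and Lgr5- cells exceeded luminal cells 3.75-fold (difference 1.91, limma adjusted p = 2.66e-06). Between the basal groups the difference was 0.97 on BeadChip 1 and 0.78 on BeadChip 2. That call was lost when any single one of Lgr5+ replicates 1 and 2 and of the 3 Lgr5- replicates was left out, with limma adjusted p of 0.0747 to 0.125, while the difference stayed at 0.86 to 0.93.

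Foxj1, the transcription factor that switches on motile cilium genes, lay close to background and was highest in Lgr5+ cells. It read 6.69, 6.29 and 6.02 on the Lgr5+ arrays, 5.52, 5.32 and 5.57 on the Lgr5- arrays, and 4.63, 5.04 and 4.72 on the luminal arrays, where it was detected on none. All Lgr5+ values lay above all Lgr5- values and these above all luminal values, which were background. The level in Lgr5+ cells was at least 1.75-fold that in luminal cells (difference 1.53, limma adjusted p = 0.000109). The fitted difference between Lgr5- and luminal cells was 0.67 (limma adjusted p = 0.0213), but the luminal values were background. With these raised to the lowest level called detected on their arrays, the Lgr5- mean was not above them, so no fold and no direction is read from it. That call was also lost without background correction (0.18, limma adjusted p = 0.141), within BeadChip 1 (limma adjusted p = 0.0965), and when any one of Lgr5- replicates 1 and 3 and luminal replicates 1 and 3 was left out (limma adjusted p = 0.0578 to 0.0756). Between the basal groups the difference of 0.86 did not pass (limma adjusted p = 0.0888), but it did without Lgr5+ replicate 3 (1.02, adjusted p = 0.0208). It was 1.07 on BeadChip 1 (limma adjusted p = 0.0457) and 0.45 on BeadChip 2.

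Rfx2, an RFX factor that acts on ciliary promoters, was higher in both basal groups than in luminal cells. It read 9.95, 9.36 and 9.43 in Lgr5+ cells, 9.10, 8.81 and 8.89 in Lgr5- cells, and 8.58, 7.82 and 7.94 in luminal cells. Again no pair of groups overlapped, and pool 1 was the highest in each group. Lgr5+ cells exceeded luminal cells 2.77-fold (difference 1.47, SE 0.238, limma adjusted p = 0.000438) and Lgr5- cells did so 1.77-fold (difference 0.82, limma adjusted p = 0.0167). The second of these calls was lost when any one of Lgr5- replicate 1, luminal replicate 2 and luminal replicate 3 was left out, with limma adjusted p of 0.0541 to 0.0614, and within BeadChip 1 (limma adjusted p = 0.0905). The difference between the basal groups was 0.65 and did not pass (limma adjusted p = 0.227).

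Ccdc114, a docking protein of the outer dynein arm, differed from luminal cells in the Lgr5+ group. It read 7.76, 7.20 and 7.42 in Lgr5+ cells, 6.57, 6.77 and 6.70 in Lgr5- cells, and 6.62, 6.60 and 6.44 in luminal cells. Lgr5+ values lay above all others, and the Lgr5- and luminal values overlapped. The Lgr5+ level was 1.88-fold the luminal one (difference 0.91, SE 0.179, limma adjusted p = 0.00171). The difference from Lgr5- cells was 0.78 (limma adjusted p = 0.0815), which passed without Lgr5+ replicate 3 (0.80, adjusted p = 0.0456). Lgr5- and luminal cells differed by 0.13 (limma adjusted p = 0.606).

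Ccdc65, a regulator of the links between dynein and the axonemal doublets, had 2 tested probes that did not read alike. The dimmer one read 6.08, 5.88 and 5.73 in Lgr5+ cells, 5.46, 5.87 and 5.47 in Lgr5- cells, and 4.83, 4.94 and 4.93 in luminal cells, where it was detected on no array. It was higher in Lgr5+ than in luminal cells, at least 1.29-fold (limma adjusted p = 0.00077), and in Lgr5- than in luminal cells, at least 1.05-fold (limma adjusted p = 0.00757). The second of these calls was lost without background correction (0.18, limma adjusted p = 0.0928). The brighter one, detected on every array, read 7.78, 7.48 and 7.31 in Lgr5+ cells, 7.57, 7.50 and 7.37 in Lgr5- cells, and 7.37, 7.39 and 6.94 in luminal cells. Its groups overlapped, and its differences from luminal cells of 0.29 and 0.25 did not pass (limma adjusted p = 0.237 and 0.333).

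Rsph1, a protein of the radial spoke head, was called in no comparison. It read 7.06, 6.42 and 6.59 in Lgr5+ cells, 6.21, 5.62 and 5.64 in Lgr5- cells, and 6.46, 7.11 and 5.99 in luminal cells. The 2 basal groups did not overlap, and the luminal values spread across both. The difference between basal groups was 0.87 (limma adjusted p = 0.196), and between Lgr5- and luminal cells -0.70 (limma adjusted p = 0.081). Dnal1, a light chain of the outer dynein arm, read 5.97, 6.14 and 5.81, then 6.09, 6.46 and 6.21, then 5.83, 6.25 and 6.37 in the same order. Its groups overlapped, and it was not called either.

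**Figure D3:**
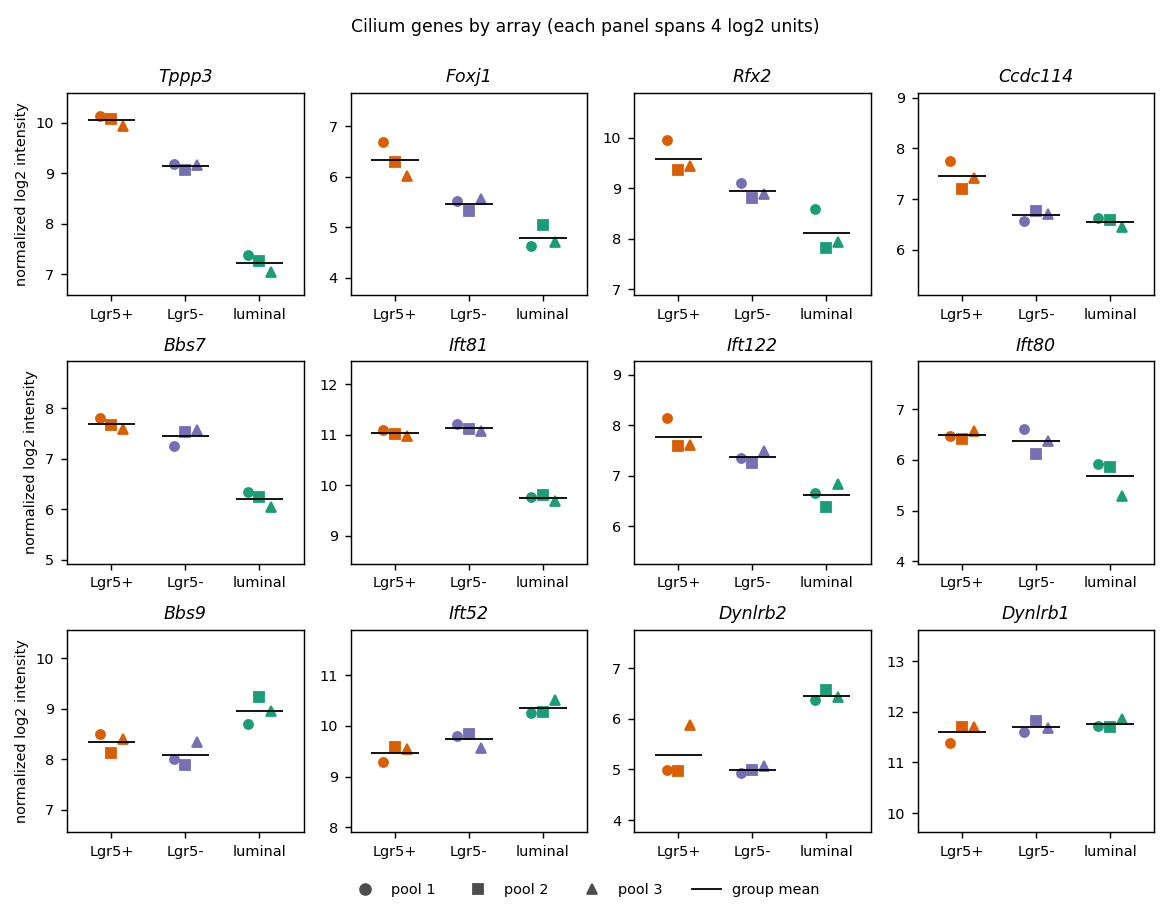
Normalized log2 intensity (vertical axis) on each array for 12 genes, by sorted population (horizontal axis), with symbols for pools 1 to 3 and a line at each group mean. For genes with several probes 1 is drawn. Tppp3 and Rfx2 step down from Lgr5+ to Lgr5- to luminal without overlap, and Foxj1 is highest in Lgr5+ cells, with luminal values at background. Ift81 is high in both basal groups, and Dynlrb2 is high in luminal cells.

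Against luminal cells the members moved in both directions, as did the array as a whole. Comparing Lgr5+ basal with luminal cells, 12 member probes of 10 genes were called higher and 9 of 4 genes lower, with 22 not called, and 48% of all tested probes were called. The share over all probes was 22.8% higher and 25.2% lower, and the median difference of the members was 0.02 against -0.05 over all. The groups did not overlap for 23 member probes, against 54% of all tested probes. Comparing Lgr5- basal with luminal cells, 11 member probes of 9 genes were higher and 10 of 6 genes lower, against 42.6% of all tested probes called, 20.7% higher and 21.8% lower. The median there was -0.06 against -0.04 over all, and the groups did not overlap for 26 member probes, against 53.9% of all. The share of members called, 48.8% in each comparison, is thus near that of the array. Without Nme7, 11 probes were higher and 5 lower in the first comparison, and 10 higher and 7 lower in the second. These 2 comparisons share the luminal arrays, so their values are set side by side below and no agreement between them is counted as a result. Each call against luminal cells had the same sign on BeadChip 1 and on BeadChip 2, and each was still called with BeadChip as a block.

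Within the IFT-B complex, which carries cargo toward the tip, Ift81 rose in both basal groups on all 3 of its probes. Ift81 forms with Ift74 the part of the train that binds tubulin. Its brightest probe read 11.10, 11.02 and 10.97 in Lgr5+ cells, 11.20, 11.11 and 11.08 in Lgr5- cells, and 9.76, 9.80 and 9.69 in luminal cells. Basal and luminal values were far apart and the basal groups overlapped. The difference from luminal cells was 1.28 in Lgr5+ cells, 2.43-fold (SE 0.145, limma adjusted p = 3.21e-05), and 1.38 in Lgr5- cells, 2.61-fold (limma adjusted p = 1.72e-05). The other probes of Ift81 gave differences of 1.45 and 1.50 in Lgr5+ cells and 1.58 and 1.55 in Lgr5- cells.

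One of these read 9.31, 9.43 and 9.70 in Lgr5+ cells, 9.79, 9.56 and 9.50 in Lgr5- cells, and 8.01, 8.17 and 7.93 in luminal cells. The last read 10.44, 10.28 and 10.41, then 10.43, 10.34 and 10.54, then 8.87, 8.95 and 8.81 in the same order of groups. All 3 Ift81 probes therefore placed every basal array above every luminal array. The authors' flag sets the last of these probes aside. Ift74, its partner, was measured near background, with values of 4.90 to 6.93 that overlapped between the groups, and it was not called.

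Ift80, another IFT-B subunit, was also higher in basal cells, by less. It read 6.48, 6.41 and 6.57 in Lgr5+ cells, 6.61, 6.12 and 6.39 in Lgr5- cells, and 5.92, 5.87 and 5.28 in luminal cells. Basal and luminal values did not overlap, with luminal replicate 3 the lowest. The difference was 0.80 in Lgr5+ cells (limma adjusted p = 0.0091) and 0.68 in Lgr5- cells (limma adjusted p = 0.0223). Neither passed within BeadChip 1, where the differences were 0.55 (limma adjusted p = 0.0828) and 0.47 (limma adjusted p = 0.148), and on BeadChip 2 they were 1.29 and 1.10. The call for Lgr5- cells was also lost without Lgr5- replicate 1, Lgr5- replicate 3 or luminal replicate 3 (limma adjusted p = 0.0585 to 0.0897), and without background correction (limma adjusted p = 0.0671).

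Ift52, a core IFT-B subunit, ran the other way on both of its probes. The brighter probe read 9.28, 9.59 and 9.55 in Lgr5+ cells, 9.81, 9.84 and 9.56 in Lgr5- cells, and 10.25, 10.27 and 10.51 in luminal cells. The second read 8.51, 8.63 and 8.74, then 9.35, 9.31 and 8.94, then 9.88, 9.55 and 9.65. On both probes every luminal array lay above every basal array. Against luminal cells, Lgr5+ cells were lower by -0.87 (limma adjusted p = 0.0015) and -1.06 (limma adjusted p = 0.000511) on the 2 probes. Lgr5- cells were lower by -0.61 (limma adjusted p = 0.0137) and -0.49 (limma adjusted p = 0.0428). The authors' flag sets the second probe aside, and its Lgr5- call was lost under 9 of the alternatives tried, 6 of them a left-out array. On the first probe the Lgr5- call was lost without Lgr5- replicate 3 (limma adjusted p = 0.0607) and within BeadChip 1 (limma adjusted p = 0.142).

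Ift172 and Ift88, IFT-B subunits needed to build any cilium, were called lower in Lgr5- cells than in luminal cells. For Ift172 this held on 1 of 3 probes, which read 8.19, 7.50 and 7.73 in Lgr5+ cells, 7.19, 7.44 and 7.33 in Lgr5- cells, and 7.93, 8.05 and 8.23 in luminal cells. Lgr5- values lay below all other values, and the Lgr5+ and luminal values overlapped. The difference was -0.75 (limma adjusted p = 0.011), and -0.43 and -0.38 on the other probes (limma adjusted p = 0.114 and 0.134). The call was lost within BeadChip 1 (-0.67, limma adjusted p = 0.081).

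Ift88 read 7.61, 7.29 and 7.18 in Lgr5+ cells, 7.49, 7.24 and 7.20 in Lgr5- cells, and 7.97, 7.90 and 7.57 in luminal cells. The Lgr5- values lay below the luminal ones by a narrow gap. The difference of -0.51 between Lgr5- and luminal cells passed by a narrow margin (limma adjusted p = 0.0478). That call was lost under 12 alternatives. Among them was leaving out any one of the 3 Lgr5- replicates, luminal replicate 1, luminal replicate 2 and Lgr5+ replicate 2 (limma adjusted p = 0.0523 to 0.145). The difference of -0.45 between Lgr5+ and luminal cells did not pass (limma adjusted p = 0.0652).

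Ift20, which links the train to the Golgi, was called in no comparison. Its brightest probe read 11.67, 11.96 and 11.82 in Lgr5+ cells, 11.73, 11.99 and 12.00 in Lgr5- cells, and 11.65, 11.85 and 11.88 in luminal cells. The groups overlapped on all 3 probes of Ift20 between Lgr5+ and luminal cells, and its differences from luminal cells lay between -0.07 and 0.27. Ift57 was not called either.

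In IFT-A, the complex of return transport, Ift122 was higher in basal cells and Ift140 was not called. Ift122 read 8.13, 7.58 and 7.61 in Lgr5+ cells, 7.34, 7.26 and 7.50 in Lgr5- cells, and 6.65, 6.39 and 6.83 in luminal cells. No pair of groups overlapped, with luminal arrays lowest. The difference from luminal cells was 1.15 in Lgr5+ cells, 2.22-fold (limma adjusted p = 0.000699), and 0.75 in Lgr5- cells, 1.68-fold (limma adjusted p = 0.0112). The brighter of 2 tested Ift140 probes read 8.24, 7.79 and 7.64 in Lgr5+ cells, 7.77, 7.76 and 7.56 in Lgr5- cells, and 8.04, 8.12 and 7.77 in luminal cells, and the other 6.46 to 7.57. Groups overlapped on the brighter probe, and the differences of both from luminal cells lay between -0.28 and 0.25.

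Of 6 tested BBSome probes, 1 was called higher and 2 lower than luminal cells in each basal group. The shares over all tested probes were 22.8% higher and 25.2% lower in Lgr5+ cells, and 20.7% and 21.8% in Lgr5- cells. Bbs7 was higher in both basal groups, at 7.80, 7.66 and 7.58 in Lgr5+ cells, 7.24, 7.52 and 7.56 in Lgr5- cells, and 6.34, 6.24 and 6.05 in luminal cells. Basal and luminal values did not overlap. The difference from luminal cells was 1.46, or 2.76-fold, in Lgr5+ cells (SE 0.166, limma adjusted p = 3.21e-05), and 1.23, or 2.34-fold, in Lgr5- cells (limma adjusted p = 0.000124).

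Bbs9, a core subunit on which the others assemble, was lower in both basal groups on its brighter probe. Its dimmer probe was also called lower, but it was tested only through luminal cells, so the filter in part sets its differences. The brighter probe read 8.51, 8.12 and 8.40 in Lgr5+ cells, 8.003, 7.88 and 8.34 in Lgr5- cells, and 8.70, 9.22 and 8.95 in luminal cells. Luminal values lay above all basal values, by a small gap. The differences were -0.62 (limma adjusted p = 0.0259) and -0.88 (limma adjusted p = 0.0044). The first of these calls was lost without Lgr5+ replicate 2, luminal replicate 2 or luminal replicate 3 (limma adjusted p = 0.052 to 0.102), and within BeadChip 1 (limma adjusted p = 0.0646).

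The dimmer Bbs9 probe read 4.54, 4.88 and 5.65 in Lgr5+ cells, 5.03, 5.31 and 4.999 in Lgr5- cells, and 5.83, 6.02 and 6.03 in luminal cells. It was detected on 1 Lgr5+ array, on no Lgr5- array and on all 3 luminal arrays. The difference was -0.93 in Lgr5+ cells (limma adjusted p = 0.0113), and Lgr5- cells were at least 1.53-fold lower (limma adjusted p = 0.0201). The Lgr5- call was lost when any one of Lgr5- replicates 1 and 3 and luminal replicates 2 and 3 was left out (limma adjusted p = 0.0526 to 0.0635), and without background correction (limma adjusted p = 0.0803). Bbs2, Bbs4 and Bbs5, further BBSome subunits, and Bbs10 and Bbs12, the chaperonin-like pair, were not called in any comparison. Bbs4 read 8.89, 8.66 and 9.11 in Lgr5+ cells, 8.12, 8.52 and 8.64 in Lgr5- cells, and 8.86, 8.33 and 8.98 in luminal cells. Bbs12 read 5.32, 5.78 and 5.75, then 4.85, 5.57 and 5.58, then 5.82, 5.19 and 5.68. Luminal values overlapped both basal groups for both genes. The authors' flag sets the Bbs12 probe aside. Bbs5 came closest, at 0.50 between Lgr5+ and luminal cells (limma adjusted p = 0.0719).

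Of the roadblock light chains of dynein, Dynlrb2 was called lower in basal cells and Dynlrb1 was not called. Dynlrb2, the form known from ciliated and testicular tissue, read 4.99, 4.98 and 5.89 in Lgr5+ cells, 4.94, 4.98 and 5.07 in Lgr5- cells, and 6.38, 6.57 and 6.43 in luminal cells. All luminal arrays lay above all basal arrays, and Lgr5+ replicate 3 stood apart from the other basal arrays. It was detected on 1 Lgr5+ array, on no Lgr5- array and on 3 luminal arrays. Lgr5- cells were at least 2.16-fold lower than luminal cells (limma adjusted p = 0.000439), and Lgr5+ cells differed by -1.18 (limma adjusted p = 0.00185), by -1.49 on BeadChip 1 and -0.54 on BeadChip 2. Dynlrb1, the form that serves cytoplasmic dynein in most cells, read 11.38, 11.70 and 11.70, then 11.61, 11.82 and 11.68, then 11.72, 11.71 and 11.86 in the same order of groups, and was not called.

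**Figure D4:**
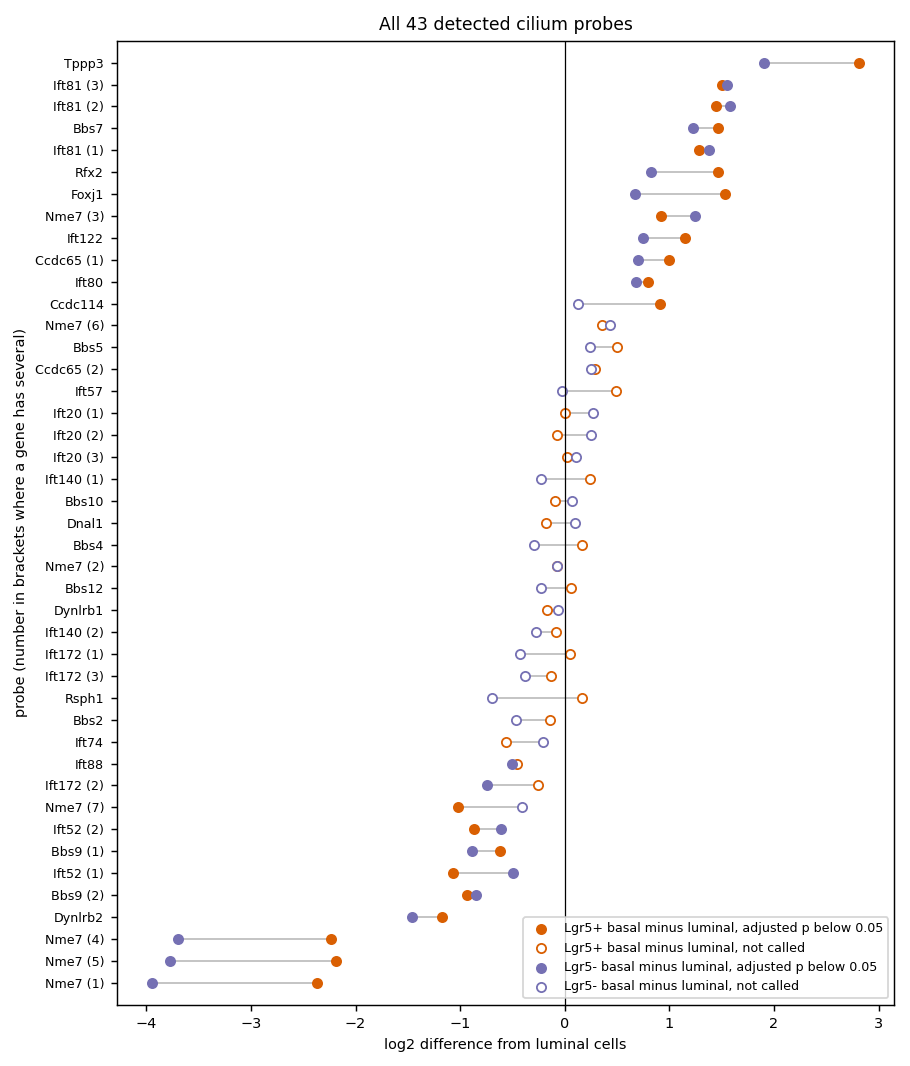
Log2 difference from luminal cells (horizontal axis) for each of the 43 tested cilium probes (vertical axis, numbered where a gene has several), for Lgr5+ basal cells in orange and Lgr5- basal cells in purple, filled where limma's adjusted p is below 0.05. Tppp3 lies highest at 2.81 and 1.91, the 3 Ift81 probes lie near 1.5, and 3 Nme7 probes lie lowest, from -2.18 to -3.95. No error bars are drawn.

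Nme7 encodes a protein of the nucleoside diphosphate kinase family that is part of the gamma-tubulin ring complex and is found in axonemes. Its name stands on 9 probes, of which 7 were tested, and they did not read alike. They are called here by their identifiers. Probe ILMN_2510694 read 9.08, 8.86 and 9.10 in Lgr5+ cells, 7.49, 7.33 and 7.45 in Lgr5- cells, and 11.06, 11.40 and 11.13 in luminal cells. Probe ILMN_1259075 read 10.08, 9.59 and 9.76, then 8.61, 8.19 and 8.23, then 11.95, 12.21 and 11.98. Probe ILMN_1214703 read 7.10, 6.58 and 7.43, then 5.25, 5.44 and 5.68, then 9.04, 9.53 and 9.64. On these 3 probes luminal cells were highest, Lgr5+ cells stood between and Lgr5- cells were lowest, with no overlap.

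Between the basal groups, ILMN_2510694 was 3.01-fold higher in Lgr5+ cells (difference 1.59, SE 0.164, limma adjusted p = 0.00302). ILMN_1259075 was 2.76-fold higher (difference 1.46, limma adjusted p = 0.00595) and ILMN_1214703 2.99-fold higher (difference 1.58, limma adjusted p = 0.0161). The differences on BeadChip 1 and BeadChip 2 were 1.56 and 1.65, 1.43 and 1.53, and 1.50 and 1.75 on the 3 probes in that order. The call on ILMN_1214703, detected on 2 of 3 Lgr5- arrays, was lost without background correction (0.57, limma adjusted p = 0.0996). It was also lost without Lgr5+ replicate 1, Lgr5- replicate 1 or Lgr5- replicate 2 (limma adjusted p = 0.0737 to 0.0957). Against luminal cells the 3 probes were lower by -2.18 to -2.37 in Lgr5+ cells, with limma adjusted p of at most 1.75e-05. In Lgr5- cells they were lower by -3.70 to -3.95, with limma adjusted p of at most 3.32e-07.

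The other 4 probes went elsewhere. ILMN_1246498 was higher in basal cells, at 7.66, 8.09 and 8.33 in Lgr5+ cells, 8.24, 8.50 and 8.31 in Lgr5- cells, and 6.97, 7.10 and 7.24 in luminal cells. Its differences from luminal cells were 0.92 (limma adjusted p = 0.00289) and 1.24 (limma adjusted p = 0.000394). ILMN_2635105 read 7.29, 7.37 and 8.08, then 8.28, 8.10 and 8.19, then 8.58, 8.67 and 8.56, so that Lgr5+ cells lay below luminal cells by -1.02 (limma adjusted p = 0.00233). Between the basal groups it was lower in Lgr5+ cells by -0.61, which did not pass, and without Lgr5+ replicate 3 by -0.86 (limma adjusted p = 0.0185). ILMN_1220095 and ILMN_2630618 read 8.90 to 9.74 on all arrays and were not called. On ILMN_2630618 every luminal array lay below every basal array. Its differences from luminal cells were 0.36 in Lgr5+ cells (limma adjusted p = 0.0943) and 0.43 in Lgr5- cells (limma adjusted p = 0.0551). The second was called under 7 of the alternatives tried.

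The files hold no probe sequences, so the transcripts these probes read cannot be told here. In the RefSeq annotation of GRCm38.p6, Nme7 overlaps Atp1b1, the beta subunit of the sodium pump, by 202 bases at their ends. The Atp1b1 probe read 8.87, 8.11 and 8.26 in Lgr5+ cells, 7.47, 7.37 and 6.89 in Lgr5- cells, and 10.68, 10.56 and 10.40 in luminal cells. Its groups stood in the same order as those of the 3 probes above, without overlap. The differences were 1.17 between the basal groups (limma adjusted p = 0.0472), -2.14 between Lgr5+ and luminal cells (limma adjusted p = 2.36e-05), and -3.31 between Lgr5- and luminal cells (limma adjusted p = 7.57e-07). Whether signal of Atp1b1 has a part in the Nme7 values was not tested, and the probes named Nme7 do not share a direction. Leaving Nme7 out, Tppp3 was the one member gene called between the basal groups.

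**Figure D5:**
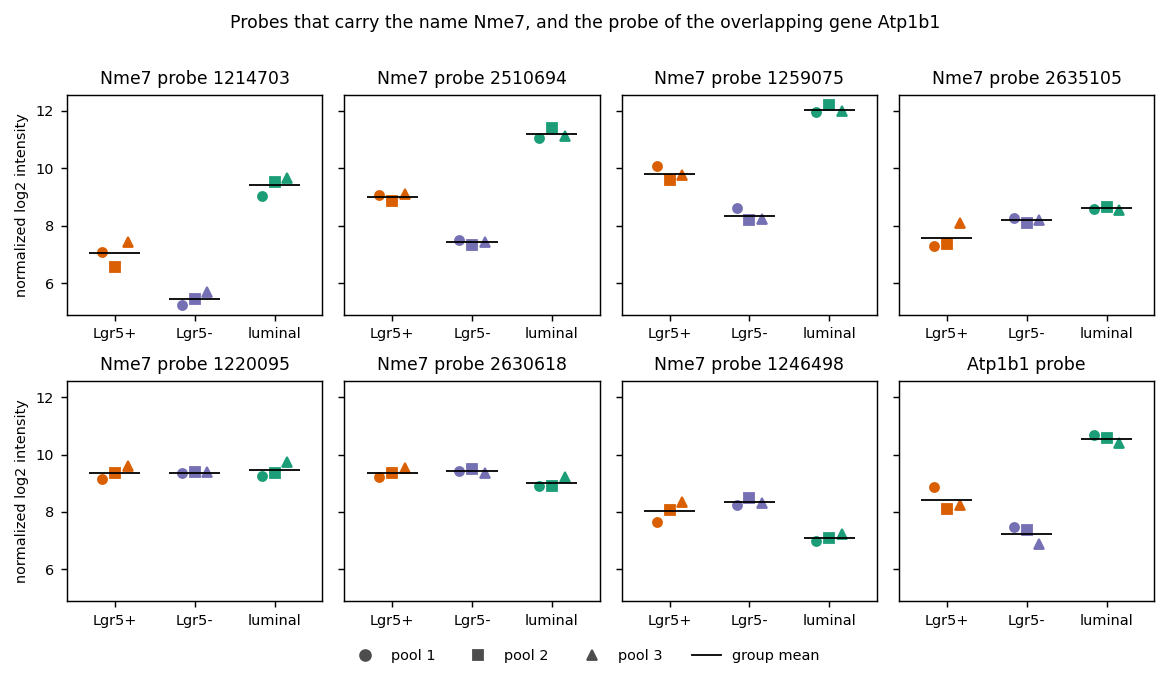
Normalized log2 intensity (vertical axis, common scale) by sorted population (horizontal axis) for the 7 tested probes that carry the name Nme7 and for the Atp1b1 probe, with a symbol per pool and a line at each group mean. Probes 1214703, 2510694 and 1259075 and the Atp1b1 probe are highest in luminal and lowest in Lgr5- cells, while 1246498 is lowest in luminal cells and 1220095 is level.

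Other genes of the cilium, which the name rule did not take, are given from 8 lists, each gene by its brightest probe and without a test of the list. Between the basal groups, Dnah1 and 1110017D15Rik were among their tested genes called higher in Lgr5+ cells, the latter named after its values were seen, and none was called lower. Dnah1, a heavy chain of the inner dynein arm, read 7.996, 7.978 and 7.71 in Lgr5+ cells, 6.89, 6.87 and 6.78 in Lgr5- cells, and 5.10, 5.29 and 5.22 in luminal cells, where it was not detected. Its groups did not overlap, as with Tppp3. The difference between the basal groups was 1.04 (limma adjusted p = 0.0128), and the level was at least 5.16-fold the luminal one in Lgr5+ cells (limma adjusted p = 2.08e-07) and at least 2.5-fold in Lgr5- cells (limma adjusted p = 8.04e-06). This probe carries a clone name that RefSeq lists as a synonym of Dnah1, and the 2 probes that carry the older gene name were detected on no array.

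1110017D15Rik read 6.99, 6.39 and 6.48 in Lgr5+ cells against 5.62, 5.38 and 5.38 in Lgr5- cells, a difference of 1.16 (limma adjusted p = 0.0429). It stands on the list of the multiciliation programme, of which 22 of 67 genes on the array were tested. Against luminal cells, 8 of these 22 were higher and 4 lower in Lgr5+ cells, and 5 higher and 5 lower in Lgr5- cells, against 22.8% and 25.2%, and 20.7% and 21.8%, of all tested probes. Odf3b differed from luminal cells by 2.32 and 0.95 (limma adjusted p = 0.0001 and 0.028) and was detected on 1 luminal array. Arhgap39 differed by 1.27 and 0.92 (limma adjusted p = 0.000114 and 0.00124). Among the genes that fell, Cfap45 and Cfap126, axonemal proteins, were lower in both basal groups: Cfap45 at least 3.12-fold and 3.33-fold, and Cfap126 by -2.33 and -2.43 (limma adjusted p of each at most 9.57e-05).

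Of the axonemal dynein list 7 of 28 genes on the array were tested. Against luminal cells 1 was higher and 2 lower in Lgr5+ cells, and 1 higher and 3 lower in Lgr5- cells. The lower ones were Dnaic1, Drc3 and, in Lgr5- cells only, Dnaaf3. Dnaic1, an intermediate chain of the outer arm, was far higher in luminal cells. It read 5.28, 5.48 and 5.22 in Lgr5+ cells, 4.96, 5.40 and 5.77 in Lgr5- cells, and 10.00, 10.00 and 10.12 in luminal cells. Detected on 1 array of each basal group, it lay below luminal cells by -4.71 (limma adjusted p = 4.72e-08) in Lgr5+ cells and by -4.66 (limma adjusted p = 5.11e-08) in Lgr5- cells. Dnah1, Dnaic1 and Cfap45, like the members named above, were tested mainly or wholly through the groups in which they were high, so the filter in part sets their differences.

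The counts on the lists stand beside 22.8% of all tested probes called higher and 25.2% lower in Lgr5+ cells, and 20.7% and 21.8% in Lgr5- cells, and no list was tested. On the ciliary membrane list 8 of 13 tested genes were higher and 1 lower in each basal group, with median differences of 1.14 and 1.11. Evc, a Hedgehog-pathway protein at the ciliary base, differed by 2.61 and 2.24 (limma adjusted p = 3.12e-07 and 8.88e-07). Pkd2, a ciliary cation channel, differed by 2.47 and 2.19, and Pkd1, its partner, by 1.97 and 1.75 (limma adjusted p of each at most 9.87e-06). The authors' flag sets the Pkd2 probe aside.

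Of the 28 tested genes of the transition zone and basal body, 9 were higher and 1 lower in Lgr5+ cells, and 6 higher and 2 lower in Lgr5- cells. Cc2d2a, a protein of the transition zone, differed by 1.39 and 1.02 (limma adjusted p = 0.000126 and 0.00116). Of 12 tested genes of the transport motors, 6 were higher and 1 lower in Lgr5+ cells, and 6 higher and 3 lower in Lgr5- cells. Dync2h1, the heavy chain of the motor for return transport, differed by 1.02 and 0.79, and Dync2li1, a light intermediate chain of the same motor, by 1.48 and 1.33 (limma adjusted p of each at most 0.00253). Of 7 tested IFT subunits with other names, Ift27 was higher by 0.51 and 0.48 and Ift43 lower by -0.93 and -0.89 in Lgr5+ and Lgr5- cells (limma adjusted p of each at most 0.025).

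Among 8 tested BBSome partners, 2 were higher and 1 lower in Lgr5+ cells, and 3 higher and 1 lower in Lgr5- cells. Rab3ip, an exchange factor for the Rab8 protein that drives membrane to the cilium, was lower by -3.69 and -3.67 (limma adjusted p of each at most 5.11e-08). Trim32, a ubiquitin ligase linked to Bardet-Biedl syndrome, was higher by 1.32 and 1.61 (limma adjusted p = 0.000155 and 3.58e-05). Among 10 tested genes of cilium disassembly, 3 were higher and 2 lower in Lgr5+ cells, and 2 higher and 1 lower in Lgr5- cells. Aurka, the kinase that starts disassembly, was lower by -1.74 and -1.44 (limma adjusted p of each at most 0.000572), and Nedd9, the scaffold that activates it, was higher by 2.30 and 2.00 (limma adjusted p of each at most 8.03e-06).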

How the data were processed

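Biotin-labelled RNA of 9 samples was hybridized to Illumina mouse BeadChips. Per the submitters' processing notes GenomeStudio and limma were used, and the sources used here give no versions. The authors deposited 2 tables. The first holds raw intensity per probe on a linear scale, with a detection column, a fraction that rises with signal on every array (Spearman's rho 0.981 to 0.991), so 1 minus it served as the detection p. The second holds the authors' normalized log2 values. Normexp correction with an offset of 16 and quantile normalization of the raw intensities came within 0.0284 of these log2 values.

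The authors' log2 values of 17712 probes, detected above 0.99 on 3 or more arrays, were fitted on all 9 arrays with limma 3.58.1 in R 4.3.3 (lmFit, eBayes, two-sided, with 6 residual degrees of freedom and 4.67 from the prior). P-values were adjusted by Benjamini-Hochberg over all 17712 probes, with a threshold of 0.05. The fit was tested on simulated data. Array number limits the precision. Where a probe was detected on no array of the lower group, values there were raised to the lowest level called detected on the same array, 5.22 to 5.60, and the fold is written as at least N. Genes are read by each probe, and no probe's level is set against another's as an amount of RNA.

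Symbols were matched to RefSeq, 36 of 38 by symbol and 2 by synonym. Every tested member called in a comparison is given on each array, with the brightest probe of each role class. Of each pathway list up to 4 tested genes with the smallest p may be named. Members and lists were chosen with earlier results of these data known. Probes whose names begin DNAHC or DNAIC fall outside the name rule. One gene of these lists is not reported here.

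Arrays of one pool deviated together: residuals from group means correlated with r of 0.231 to 0.403 between Lgr5+ and Lgr5- arrays, 0.110 to 0.367 between Lgr5- and luminal arrays and 0.0829 to 0.109 between Lgr5+ and luminal arrays. The first 2 pairs of groups count as paired by pool, but the main fit has no pool term, and the pool block is an alternative. The highest r of each pair came from pool 3, the one pool on BeadChip 2. Pool and BeadChip cannot be told apart there. The alternatives tried were other background corrections, centring, filters, probe rules, blocks for pool and BeadChip, 2-group and robust fits and leaving out each array.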

Additional observations from a re-analysis of the deposited data

How the results depend on the processing

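No call of a member reversed under any alternative. Between Lgr5+ and Lgr5- basal cells 2 of 4 calls held under all alternatives, against luminal cells 19 of 21 in Lgr5+ and 12 of 21 in Lgr5- cells. With the pool as a replicate block the member counts were 4 higher and 0 lower between basal groups, 13 and 10 in Lgr5+ against luminal cells, and 12 and 10 in Lgr5- against luminal cells. The block lost no call and added Bbs5 (adjusted p = 0.021) and Ift88 (0.0264) in Lgr5+ and Nme7 probe ILMN_2630618 (0.0459) in Lgr5- cells. With one probe per gene, fewer probes were tested and the counts were 2 higher between basal groups and 4 lower in Lgr5+ against luminal cells. Bbs7, Ccdc114, Foxj1, Ift122, Ift80, Ift81, Rfx2 and Tppp3 were still called higher in Lgr5+ than in luminal cells. In Lgr5- against luminal cells 7 were higher and 5 lower. Within BeadChip 1, the 4 calls between basal groups were kept. Foxj1 was added as higher (1.07, limma adjusted p = 0.0457), and 1 probe was lower (Nme7 ILMN_2635105). In Lgr5+ against luminal cells Ift80 and the brighter Bbs9 probe were lost. Ift74 was added there as lower (-1.32, limma adjusted p = 0.0128), with a difference of 0.96 on BeadChip 2. In Lgr5- against luminal cells 6 were lower, and Rfx2, Ift80 and Foxj1 were no longer called higher. Leaving out 1 array gave 2 to 6 higher and 0 to 1 lower between basal groups, 12 to 13 higher and 8 to 10 lower in Lgr5+ against luminal cells, and 8 to 11 higher and 6 to 11 lower in Lgr5- against luminal cells. The lowest values came without Lgr5+ replicate 1, Lgr5- replicate 1 or Lgr5- replicate 2 (2 higher) and without Lgr5- replicate 3 (6 lower), and the 6 higher without Lgr5+ replicate 3. Without background correction, differences of probes near background were smaller. Apart from what fewer probes or arrays do, the cause was not tested. Probes close to background limit what can be said of Foxj1, Dynlrb2, Ccdc65, Bbs9 and Ift74.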
